A study of Homo sapiens with 36 samples.

Results

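The step from day 1 to day 2 of cardiomyocyte differentiation was described in wild-type H1 cells, a human embryonic stem cell line. Its members were 6 libraries out of 36 in the series, namely 3 replicates labelled day 1 and 3 labelled day 2, and every gene counted in them was used. Both groups are labelled wild type. The cells were grown in E8 medium on Matrigel and then moved to a cardiac differentiation medium, in which 5 µM CHIR99021, an inhibitor of the kinase GSK3 that activates WNT signalling, was present over days 0 to 1, 3 µM IWP2, an inhibitor of WNT secretion, over days 2 to 5, and heparin at 3 µg per ml over days 1 to 7. Whether the day 2 cells were taken before or after the first addition of IWP2 is not stated in the labels, so the change of medium and the extra day cannot be told apart. The matching step in 6 libraries labelled PERK KO, H1 cells labelled as a knockout of the kinase PERK, was set beside it only where the difference between the steps was tested. The series' design text names days 0, 2 and 6 for collection and the sample labels days 0, 1, 2, 3, 5 and 10, and the labels were followed. No label says how PERK was targeted, whether the KO line is 1 clone or whether replicates were separate cultures, so the p-values measure the spread between these libraries, which may be technical.

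In the embryo, cells of the epiblast, an epithelium, enter the primitive streak under WNT and NODAL signals, switch on T-box and homeobox factors such as TBXT, MIXL1 and EOMES, lose contact with their neighbours and leave as mesoderm or endoderm. Mesoderm that leaves early expresses MESP1 and contributes to the heart, while mesoderm that forms beside the midline is cut into somites under the control of NOTCH signalling and TBX6. CHIR99021 replaces the WNT signal in culture, so that a sheet of stem cells passes through a streak-like state and into mesoderm within days.

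The 6 libraries held 17391166 to 25860481 expected counts each, of which 4.59% to 5.55% came from the mitochondrial genome. Wild-type day 2 replicate 3 stood apart from its group. A chi-square over genes, divided by its degrees of freedom, was 74.55 and 69.74 between it and the other day 2 libraries, against 4.051 between those 2 and 2.26 to 5.013 between the day 1 libraries. Its mean effective transcript length was 2400 nucleotides, against 2665 and 2610 in the other day 2 libraries. Its counts relative to them fell with transcript length: the median log2 ratio was 0.374 in genes with transcripts of up to 1370 nucleotides and -0.223 in those of 3547 nucleotides and more. List counts that change by 1.5 times or more without this library are given with and without it. Of the named calls 7 were lost without it, and only some of these are marked below. A call printed without such a mark therefore need not hold without this library. EIF2AK3, the gene for PERK, gave 10.1 to 11.1 CPM (counts scaled for library size, with TMM factors) at day 1 and 18.9, 18.1 and 10.9 CPM at day 2 in wild type, and 13.8 to 15.1 and 18.6 to 22.5 CPM in the libraries labelled PERK KO. The wild-type rise (log2 fold change 0.58 ± 0.20, SE) passed the test (adjusted p = 0.0189) but not without day 1 replicate 2 or day 2 replicate 1 or 2. The transcript was not lower in the libraries labelled PERK KO, so its level does not check their genotype.

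Of 19772 genes tested with edgeR's quasi-likelihood test, 9030 (45.7%) differed between day 2 and day 1 at a Benjamini-Hochberg adjusted p under 0.05. Those higher at day 2 numbered 4575 (23.1%) and those lower 4455 (22.5%). A change of at least 2-fold was called for 4936 genes (25.0%), 2350 (11.9%) upward and 2586 (13.1%) downward, the libraries of the 2 days did not overlap for 11474 genes (58.0%), and the median log2 fold change over all genes was 0.00. Without day 2 replicate 3 the calls numbered 7239 in the fit over all other libraries. In a fit to the compared libraries alone they rose from 7277 with that library to 11153 without it, and those lower from 3296 to 5706. Protein-coding genes were called more often (49.7% of 15802) than lincRNAs (33.7% of 985) or processed pseudogenes (16.3% of 367). Because 45.7% of all genes were called, each list below is read against these shares, and the lists were drawn up with earlier results of these data known.

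**Figure D1:**
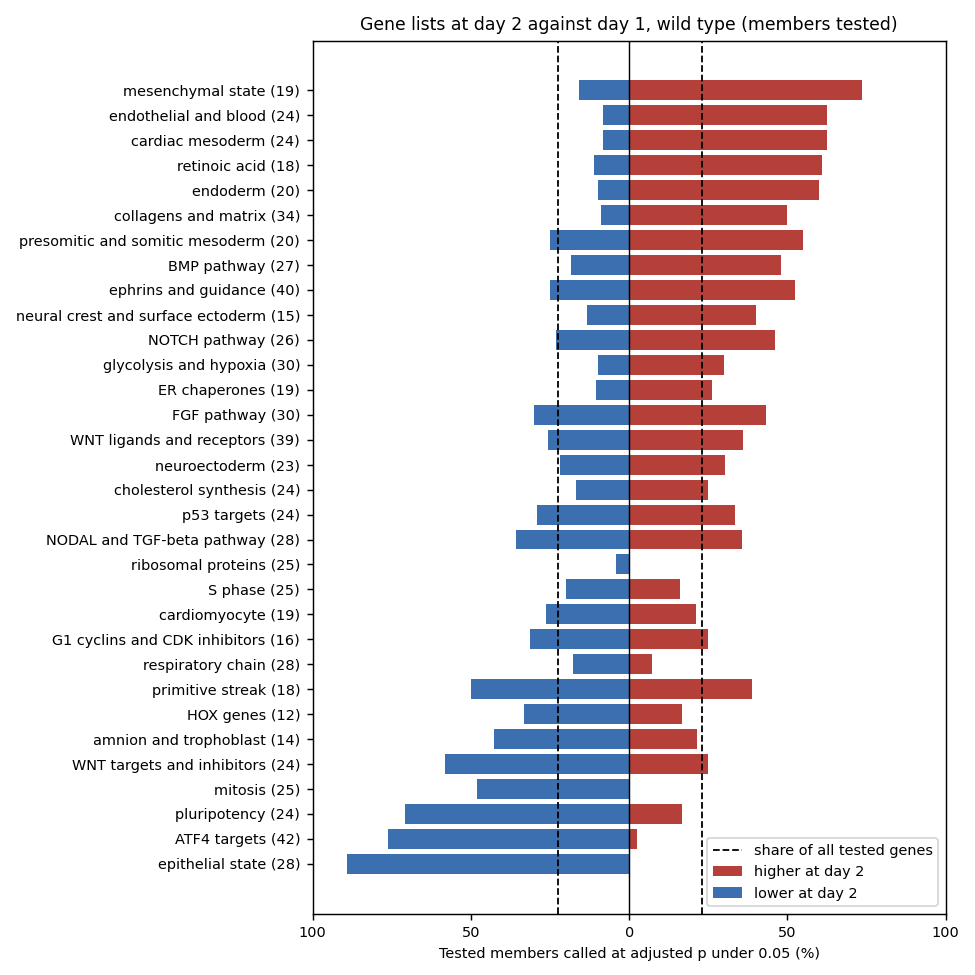
Share of the tested members of each gene list that were higher (right, red) or lower (left, blue) at day 2 than at day 1 in wild type, in percent, at an adjusted p under 0.05; lists with at least 10 tested members are shown, and the dashed lines mark the shares over all tested genes (23.1% higher, 22.5% lower). The epithelial list had 25 of 28 members lower and none higher, and the mesenchymal list had 14 of 19 higher.

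Primitive streak genes split into those that were passing and those that were arriving. Of 18 members, 9 fell, 7 rose and 2 (WNT3A and FOXA2) did not pass the test, with a median log2 fold change of -0.598, and -0.741 without day 2 replicate 3. NODAL, the TGF-beta family ligand that maintains the streak (chr10:70432315-70447951, minus strand, GRCh38), was at 382, 386 and 373 CPM at day 1 and at 13.0, 11.1 and 15.9 CPM at day 2. All day 2 libraries lay far below all day 1 libraries, a log2 fold change of -4.83 ± 0.33 (SE; adjusted p = 3.07e-13). TBXT, the T-box factor brachyury that marks the whole streak, went from 1061, 1030 and 1034 CPM to 211, 209 and 258 CPM (-2.20 ± 0.23). It had been at 0.110 CPM on average at day 0 and was at 1.83 CPM at day 3, so day 1 held its highest level of these days. MIXL1, a homeobox factor of the streak, dropped from 1515, 1432 and 1480 CPM to 522, 511 and 615 CPM (-1.43 ± 0.16). The homeobox genes NKX1-2 (-4.16 ± 0.21) and EVX1 (-2.53 ± 0.28), the growth factor FGF8 (-4.16 ± 0.30) and SP5, a zinc finger factor and direct WNT target (-2.93 ± 0.24), fell with them, as did FOXH1, the DNA-binding partner of SMAD2 (-0.81 ± 0.16).

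Several of the streak genes that rose are known from the anterior streak and its derivatives. LHX1, a LIM homeobox factor (chr17:36936785-36944612, plus strand), was at 4.35, 6.18 and 7.08 CPM at day 1 and at 867, 952 and 866 CPM at day 2. That was a log2 fold change of 7.26 ± 0.33 (adjusted p = 2.77e-17), with no overlap between the groups, and the mean had fallen back to 91.1 CPM at day 3. CER1, a secreted antagonist of NODAL, BMP and WNT, rose from 28.4, 25.7 and 32.0 CPM to 671, 720 and 412 CPM (4.39 ± 0.31), with the lowest of the day 2 values in replicate 3. EOMES, the T-box factor that acts upstream of MESP1, rose from 156, 146 and 169 CPM to 542, 531 and 639 CPM (1.86 ± 0.16). The ligands WNT8A (4.64 ± 0.25) and WNT3 (1.00 ± 0.14) and the organizer gene GSC (0.91 ± 0.27) also rose. FGF17 was called at 0.59 ± 0.24 (adjusted p = 0.0478), but not without day 2 replicate 3 (0.45, adjusted p = 0.17). In this list NODAL, TBXT and MIXL1 had their highest wild-type mean at day 1 among days 0 to 3, and LHX1, EOMES and CER1 at day 2.

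**Figure D2:**
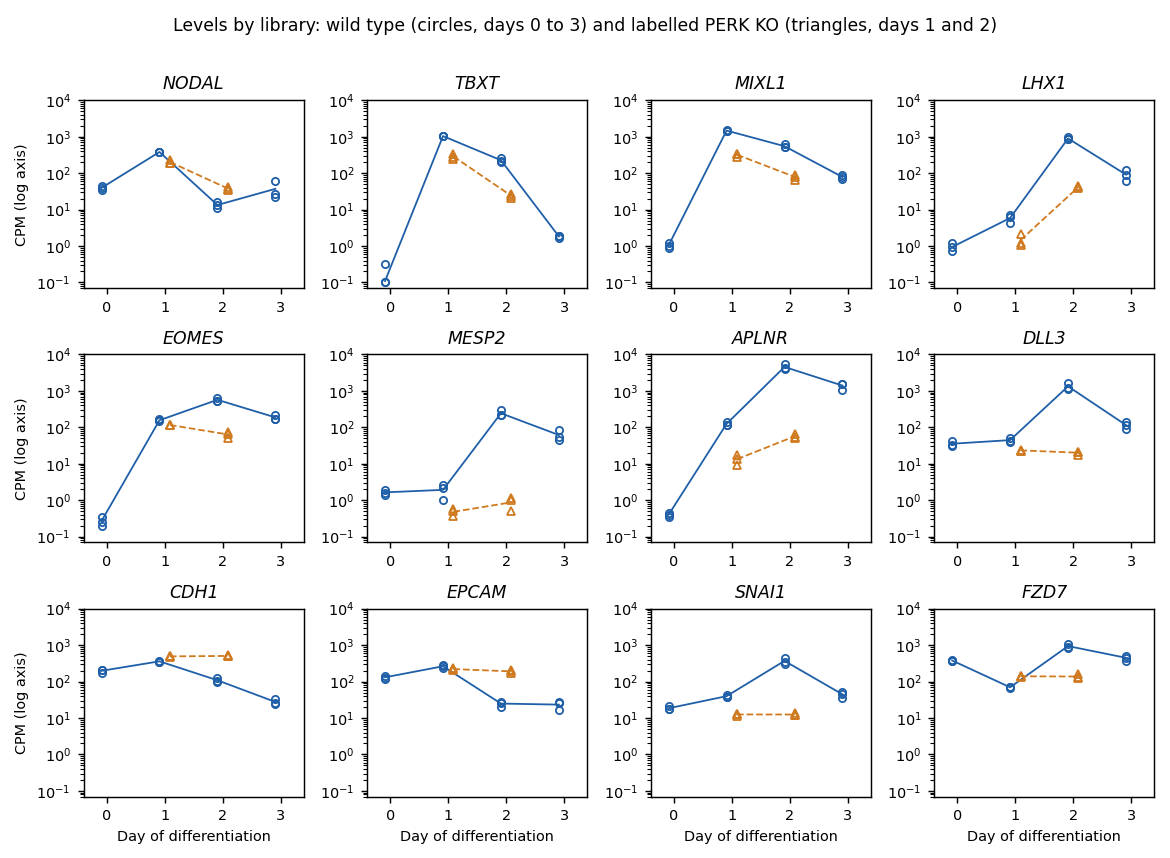
Level of 12 genes in each library in CPM on a log axis, wild type at days 0 to 3 (circles, solid line through the means) and labelled PERK KO at days 1 and 2 (triangles, dashed line); values under 0.1 CPM are drawn at 0.1. NODAL, TBXT and MIXL1 are highest at day 1 in wild type, LHX1, EOMES, MESP2, APLNR, DLL3, SNAI1 and FZD7 at day 2, and CDH1 falls from 351 to 375 CPM to 97.3 to 127 CPM between days 1 and 2 in wild type while its triangles stay between 469 and 523 CPM.

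SP5 and MIXL1 are shown by the bases before their start because, of the streak genes in the promoter table, they hold the core letters read by the TCF/LEF factors of the WNT pathway. Both fell over the step, and whether the motif or the end of CHIR99021 had a part in that was not tested. The motif ATCAAAG was searched on both strands in the 250 bases before the start of each RefSeq gene (GRCh38.p14) and stands in capitals, as CTTTGAT where it lies on the other strand. It was found for 2 of the 12 streak genes present in the promoter table and for 2.75% of 27305 genes. In the list of WNT targets and inhibitors 1 of 14 genes held it (7.14%), and that gene was SP5 itself. In the cardiac mesoderm list 1 of 16 held it (6.25%), and that gene, HAND1, rose over the step (log2 fold change 9.26). The match of SP5 (chr2:170715087-170715336, plus strand) begins 109 bases before the start, and that of MIXL1 (chr1:226223414-226223663, plus strand) 76 bases before it.
SP5 promoter: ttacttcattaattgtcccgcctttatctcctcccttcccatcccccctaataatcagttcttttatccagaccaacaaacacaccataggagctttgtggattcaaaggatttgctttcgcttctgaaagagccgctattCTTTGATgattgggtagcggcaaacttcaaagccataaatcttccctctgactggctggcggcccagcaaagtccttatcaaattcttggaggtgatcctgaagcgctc
MIXL1 promoter: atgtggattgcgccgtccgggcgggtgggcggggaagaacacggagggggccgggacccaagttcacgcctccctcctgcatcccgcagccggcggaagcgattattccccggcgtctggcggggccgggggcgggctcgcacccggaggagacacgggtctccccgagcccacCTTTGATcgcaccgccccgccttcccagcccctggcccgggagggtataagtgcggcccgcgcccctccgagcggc
A match is a run of letters and does not show that a factor was bound there.

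Cardiac mesoderm genes rose. Of 24 members, 15 were higher and 2 lower (median log2 fold change 2.02, and 1.90 without day 2 replicate 3), against 23.1% and 22.5% of all genes. MESP1, the basic helix-loop-helix factor of the earliest cardiac mesoderm, rose from 12.5, 8.33 and 7.88 CPM to 144, 138 and 205 CPM (4.08 ± 0.34). Its neighbour on chromosome 15, MESP2, rose further, from 2.17, 0.996 and 2.61 CPM to 218, 222 and 292 CPM (6.97 ± 0.33, adjusted p = 1e-16). Both genes were at their highest wild-type mean of days 0 to 3 at day 2, with 61.9 and 61.5 CPM left at day 3. APLNR, the apelin receptor carried by nascent mesoderm (chr11:57233577-57237314, minus strand), was at 143, 116 and 115 CPM at day 1 and at 4135, 4064 and 5468 CPM at day 2 (5.19 ± 0.23, adjusted p = 2.2e-17). Per transcript length it went from 57.8 ± 6.08 to 2058 ± 109 TPM (a level scaled for transcript length; SD, n = 3), from rank 2395 to rank 81 among protein-coding genes. Of its ligands, APELA fell from 4.93, 6.13 and 5.17 CPM to 0.558, 0.557 and 0.883 CPM (-3.00 ± 0.32), and APLN was low at both days (-0.56 ± 0.31, adjusted p above the threshold).

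Other members of the cardiac list differed in when they came on. HAND1, a factor of the first heart field, extraembryonic mesoderm and amnion, had 0.155, 0 and 0 CPM at day 1 and 35.8, 37.1 and 54.1 CPM at day 2 (9.26 ± 0.67), and its mean went on to 657 CPM at day 3. PDGFRA, a receptor of cardiac and paraxial mesoderm, rose from 5.71, 3.56 and 2.02 CPM to 173, 150 and 87.9 CPM (5.16 ± 0.31), with replicate 3 lowest. GATA6 (2.25 ± 0.23), GATA4 (1.10 ± 0.24) and TBX3 (2.41 ± 0.22), transcription factors of the cardiac lineage, rose less, from levels already between 10.6 and 99.0 CPM at day 1. KDR, the VEGF receptor used to sort cardiac progenitors, was at 286 to 296 CPM at day 1 and 326 to 391 CPM at day 2 and did not pass the test (0.35 ± 0.24). FOXF1, a factor of lateral mesoderm, fell from 10.6, 6.92 and 7.41 CPM to 3.35, 3.56 and 4.21 CPM (-1.16 ± 0.36), a call lost without day 1 replicate 1 (adjusted p = 0.0695). MSX1 was called at 0.61 ± 0.24 but not without day 2 replicate 3 (0.44, adjusted p = 0.18). TBX5, a later heart factor, had no counts in the 6 libraries, and ISL1 and HAND2 stayed near 1 CPM or below.

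Genes of presomitic mesoderm rose at the same step. Of 20 tested members out of 21, 11 were higher and 5 lower (median 1.71, and 1.49 without day 2 replicate 3). DLL3, a NOTCH ligand-like protein of the segmentation clock (chr19:39498895-39508481, plus strand), rose from 52.0, 43.5 and 38.6 CPM to 1176, 1160 and 1668 CPM (4.90 ± 0.21, adjusted p = 7.87e-18). DLL1, a NOTCH ligand, rose from 19.5, 16.7 and 14.8 CPM to 285, 279 and 370 CPM (4.19 ± 0.19). LFNG, the glycosyltransferase that modifies NOTCH receptors, rose from 10.1, 6.97 and 7.19 CPM to 356, 361 and 529 CPM (5.67 ± 0.25). In the 3 genes replicate 3 held the highest day 2 value, and none of the day 2 values reached down to the day 1 range. TBX6, the T-box factor that gives presomitic cells their identity, rose from 43.5, 38.4 and 35.8 CPM to 292, 291 and 375 CPM (3.02 ± 0.23). RIPPLY2, a repressor at the segment boundary (7.51 ± 0.48), the forkhead genes FOXC1 (6.52 ± 0.28) and FOXC2 (7.06 ± 0.42), RSPO3 (1.81 ± 0.27) and the clock gene HES7 (1.53 ± 0.27) rose with them.

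Members that fell included factors of the posterior end of the embryo. CDX1 went from 221, 186 and 152 CPM to 7.08, 6.96 and 10.8 CPM (-4.49 ± 0.26), and CDX2 from 222, 228 and 198 CPM to 14.2, 13.5 and 22.3 CPM (-3.70 ± 0.26). Both are homeobox factors that activate HOX genes in the posterior streak. MSGN1, a helix-loop-helix factor of early presomitic mesoderm, fell from 28.9, 25.1 and 22.6 CPM to 7.92, 7.57 and 8.68 CPM (-1.66 ± 0.25), and NRARP, a feedback inhibitor of NOTCH, fell by 1.14 ± 0.16 on the log2 scale. The bases before MESP2 and MSGN1 are shown because both hold a T-box motif and their transcripts moved in opposite directions. AGGTGTNA was searched on both strands of the same 250 bases and is in capitals, here as TNACACCT in each. It occurred for 1 of 15 presomitic genes in the table (MSGN1), 2 of 16 cardiac mesoderm genes (MESP2 and MEF2C) and 2.66% of all genes. The epithelial list had 1 of 13 (CRB3), the mesenchymal list 1 of 14 (ZEB1) and the streak list 0 of 12, so the motif was not particular to the mesoderm lists. In MESP2 (chr15:89776082-89776331, plus strand) the match begins 81 bases before the start, and in MSGN1 (chr2:17816210-17816459, plus strand) 129 bases before it.
MESP2 promoter: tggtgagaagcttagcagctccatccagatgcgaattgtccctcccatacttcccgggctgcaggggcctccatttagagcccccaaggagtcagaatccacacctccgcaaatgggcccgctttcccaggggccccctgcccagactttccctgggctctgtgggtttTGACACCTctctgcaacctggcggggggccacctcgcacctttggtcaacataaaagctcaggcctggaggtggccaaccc
MSGN1 promoter: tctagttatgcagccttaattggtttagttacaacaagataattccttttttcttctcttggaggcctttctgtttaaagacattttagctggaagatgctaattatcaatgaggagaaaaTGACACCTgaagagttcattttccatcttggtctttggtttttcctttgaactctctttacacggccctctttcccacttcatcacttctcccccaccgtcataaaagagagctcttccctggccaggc
Both promoters carry the same 8 capital letters, and the transcripts of the 2 genes changed in opposite directions over the step.

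In the wider NOTCH list, 12 of 26 tested members rose and 6 fell (median 0.506), and without day 2 replicate 3 11 rose and 4 fell. The ligand JAG1 rose from 31.0, 35.6 and 33.3 CPM to 164, 154 and 177 CPM (2.31 ± 0.15). The receptors NOTCH1 (1.51 ± 0.24) and NOTCH2 (1.03 ± 0.23) and the target genes HES1 (1.93 ± 0.27) and HEYL (1.32 ± 0.23) rose. Ligands, a modifying enzyme, receptors and targets thus each had members that were higher at day 2, but the HES genes were split. Mean HES6 went from 56.3 TPM at day 1 to 28.4 TPM at day 2 and mean HES3 from 7.03 TPM to 0.94 TPM. The feedback inhibitor NRARP fell, as given above. RBPJ, the DNA-binding partner of NOTCH, was called lower (-0.92 ± 0.30), a call that was lost without day 2 replicate 3 (-0.53, adjusted p = 0.141).

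Epithelial genes fell. Of 28 members, 25 were lower and none was higher, with a median of -1.50 (-1.81 without day 2 replicate 3), against 22.5% of all genes lower. CDH1, which encodes E-cadherin, the adhesion protein of epithelial junctions (chr16:68737225-68835548, plus strand), was at 354, 375 and 351 CPM at day 1 and at 97.3, 102 and 127 CPM at day 2 (-1.73 ± 0.17, adjusted p = 6.46e-10). EPCAM, an epithelial adhesion molecule, fell from 282, 265 and 242 CPM to 26, 28.4 and 20.4 CPM (-3.40 ± 0.22). The splicing regulators of epithelial transcripts fell too, ESRP2 from 38.8, 42.2 and 43.9 CPM to 2.90, 2.56 and 4.52 CPM (-3.64 ± 0.18) and ESRP1 by 1.66 ± 0.17 on the log2 scale. Tight junction genes ran from CLDN7 (-2.98 ± 0.21) and OCLN (-2.88 ± 0.19) to CLDN6 (-1.77 ± 0.21). The desmosome gene PKP2 (-3.28 ± 0.22), the junction gene MARVELD3 (-3.33 ± 0.19) and the transcription factors GRHL2 (-1.46 ± 0.24), OVOL1 (-2.68 ± 0.26) and OVOL2 (-1.28 ± 0.25), which maintain the epithelial state, were in the same range. The 3 members that did not pass were the keratins KRT8 (-0.04 ± 0.23) and KRT19 (0.53 ± 0.28) and the desmosome gene DSP (-0.62 ± 0.33). KRT8 was still at 464, 506 and 791 CPM at day 2. KRT18, the partner of KRT8, was called lower (-0.78 ± 0.25), but not without day 2 replicate 1 or 2 (adjusted p = 0.0559 and 0.0555).

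Mesenchymal genes rose at the same step. Of 19 tested members out of 20, 14 were higher and 3 lower (median 1.87, and 1.95 without day 2 replicate 3). SNAI1, the zinc finger repressor of CDH1 (chr20:49982999-49988886, plus strand), rose from 41.7, 38.9 and 38.6 CPM to 304, 353 and 450 CPM (3.21 ± 0.17, adjusted p = 6.27e-16). SNAI2 rose from 1.13, 1.52 and 0.959 CPM to 29.5, 26.7 and 22.5 CPM (4.45 ± 0.29), and TWIST1 from 0.311, 0.315 and 0.0533 CPM to 12.7, 13.5 and 15.2 CPM (5.84 ± 0.37). The long transcripts of ZEB1 and ZEB2, repressors of the same class, gave 7.59, 10.3 and 1.56 CPM and 70.4, 74.1 and 26.1 CPM at day 2, with replicate 3 lowest in both. Their log2 fold changes were 3.13 ± 0.56 and 1.96 ± 0.33, and 3.62 and 2.33 without that library. ITGA5, the fibronectin receptor subunit, rose from 87.3, 84.0 and 83.6 CPM to 996, 1035 and 1391 CPM (3.75 ± 0.17). LOX, which cross-links collagen, rose from 0.699, 0.210 and 0.373 CPM to 100, 104 and 78.2 CPM (7.69 ± 0.37) and was back at 2.62 CPM at day 3. VIM (1.25 ± 0.14), FN1 (1.08 ± 0.23), SPARC (1.56 ± 0.13), MMP14 (2.09 ± 0.14) and CDH11 (1.87 ± 0.23) rose less.

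Some members of the mesenchymal list went the other way. CDH2, N-cadherin, which often replaces CDH1, was lower at day 2 (465, 440 and 457 CPM against 316, 314 and 241 CPM, -0.65 ± 0.16), and TCF4, another factor counted as mesenchymal, fell by 1.83 ± 0.34 on the log2 scale. These are averages over all cells of a culture, and in such bulk libraries fewer cells of a type and less RNA per cell cannot be told apart.

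**Figure D3:**
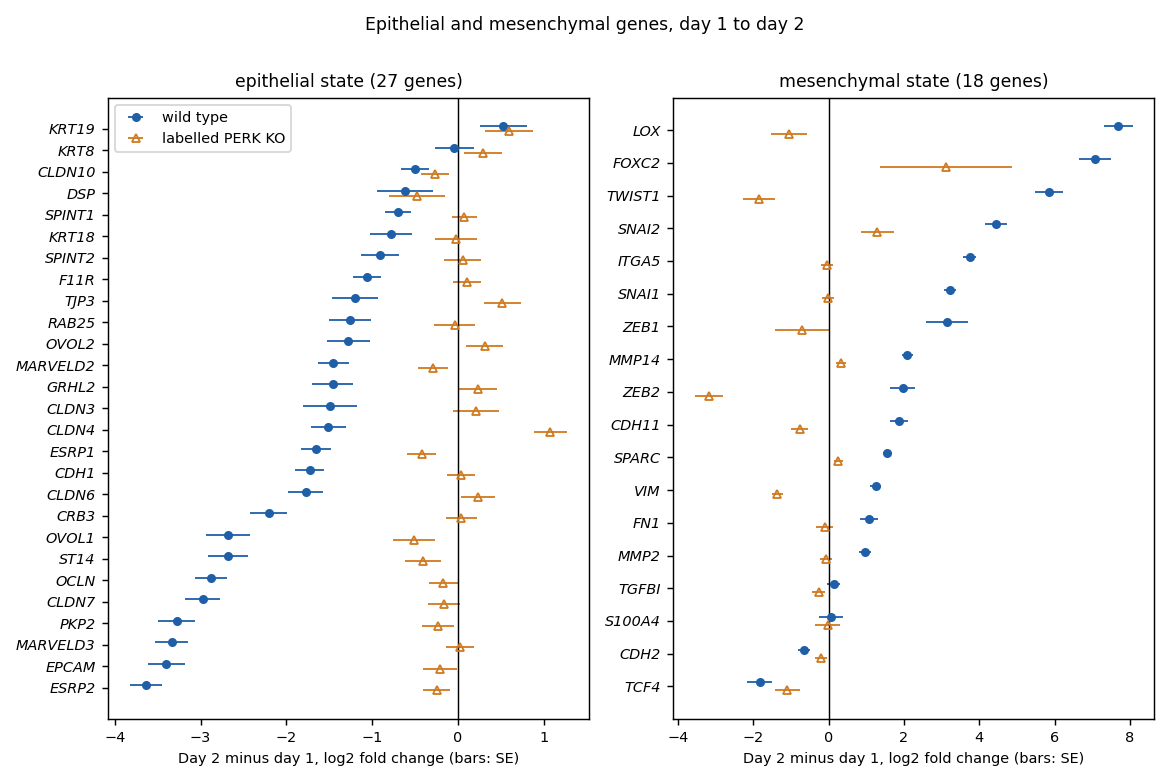
Log2 fold change from day 1 to day 2 of the epithelial (left) and mesenchymal (right) genes with at least 1 CPM in any of the 4 groups, in wild type (filled circles) and in the libraries labelled PERK KO (open triangles), with bars for the SE. Of the 27 epithelial genes drawn, 24 lie below 0 in wild type at an adjusted p under 0.05, while the triangles of that list run from CLDN4 at 1.08 to OVOL1 at -0.51.

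CLDN7 and CRB3, a polarity gene that fell from 8.12, 7.70 and 7.51 CPM to 1.40, 1.28 and 2.34 CPM (-2.21 ± 0.21), are shown by sequence because they hold the most E-boxes of the kind bound by SNAI and ZEB repressors. CAGGTG and its reverse complement CACCTG are in capitals. Of 13 epithelial genes in the promoter table, 7 held at least 1 (CLDN7, CRB3, DSP, OCLN, RAB25, SPINT1 and TJP3), or 53.8%, against 20.6% of all genes and 3 of 14 mesenchymal genes. The median GC content of the epithelial promoters was 66.0% and that of all promoters 58.0%, and the part of base composition in this count was not tested. DSP, which did not pass the test, held 2 matches. This motif and the T-box motif overlap in letters, and a run that holds both is counted under both. The stretches are chr17:7262479-7262728 (minus strand) for CLDN7, with 4 matches, and chr19:6464021-6464270 (plus strand) for CRB3, with 5.
CLDN7 promoter: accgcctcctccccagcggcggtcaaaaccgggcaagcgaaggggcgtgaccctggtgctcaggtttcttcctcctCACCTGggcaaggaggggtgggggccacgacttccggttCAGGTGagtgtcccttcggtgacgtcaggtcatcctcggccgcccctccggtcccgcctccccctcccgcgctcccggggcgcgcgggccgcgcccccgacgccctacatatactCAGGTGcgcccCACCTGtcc
CRB3 promoter: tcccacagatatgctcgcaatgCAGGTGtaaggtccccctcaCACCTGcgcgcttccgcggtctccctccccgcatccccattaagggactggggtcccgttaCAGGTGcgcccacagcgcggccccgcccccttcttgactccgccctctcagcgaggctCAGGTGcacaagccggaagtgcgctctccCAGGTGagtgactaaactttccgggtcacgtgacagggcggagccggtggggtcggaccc
In CLDN7 the match farthest from the start begins 174 bases and the nearest 9 bases before it, and in CRB3 the matches begin 228, 208, 147, 89 and 60 bases before it.

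Targets and feedback inhibitors of WNT signalling fell. Of 24 tested members out of 26, 14 were lower and 6 higher (median -0.845). AXIN2, the feedback scaffold read as the standard WNT target, fell from 455, 453 and 443 CPM to 54.4, 53.1 and 67.5 CPM (-2.95 ± 0.14, adjusted p = 5.65e-17). The secreted inhibitors DKK1 (966, 856 and 854 CPM to 111, 119 and 91.0 CPM, -3.06 ± 0.30) and DKK4 (330, 284 and 334 CPM to 11.7, 11.6 and 10.5 CPM, -4.81 ± 0.26) fell with it, as did RNF43, a ligase that removes WNT receptors (-3.55 ± 0.26), and TNFRSF19 (-4.61 ± 0.27). NKD1 (-0.82 ± 0.21) and NOTUM (-1.25 ± 0.23) fell less, and the cell cycle target CCND1 fell by 1.16 ± 0.12. The nuclear partners of beta-catenin behaved otherwise: LEF1 was at 93.0, 88.4 and 86.2 CPM and then 114, 115 and 117 CPM (0.37 ± 0.19, adjusted p = 0.119), and TCF7 gave 0.07 ± 0.17 (adjusted p = 0.779). SFRP1, a secreted WNT binder, rose by 2.58 ± 0.15. BMP4, in the list as a target, rose by 4.96 ± 0.22.

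Ligands and receptors of the pathway moved in both directions. Of 39 tested members out of 43, 14 rose and 10 fell, with a median of 0.558 that was 0.249 without day 2 replicate 3. FZD7, a frizzled receptor of mesendoderm, rose from 69.2, 67.0 and 72.6 CPM to 905, 854 and 1066 CPM (3.76 ± 0.13, adjusted p = 9.56e-20). FZD2 rose (2.84 ± 0.18), while FZD10 fell from 68.3, 68.1 and 54.0 CPM to 5.47, 5.51 and 8.62 CPM (-3.28 ± 0.29). WNT5A, a ligand of the non-canonical branch, rose from 47.3, 40.6 and 36.5 CPM to 626, 578 and 383 CPM (3.67 ± 0.27), and its receptor ROR2 rose by 1.79 ± 0.17. WNT5B went the other way, from 263, 245 and 226 CPM to 13.8, 15.5 and 25.5 CPM (-3.74 ± 0.29). LGR5, a receptor for R-spondins and a WNT target in other tissues, rose by 2.47 ± 0.25.

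In the NODAL and TGF-beta list 10 of 28 members rose and 10 fell (median -0.00). Beside NODAL, the activin antagonist FST fell from 228, 209 and 187 CPM to 14.3, 12.6 and 13.3 CPM (-3.96 ± 0.22). The inhibitors CER1 and LEFTY2 (2.99 ± 0.27) rose, LEFTY1 did not pass (0.58 ± 0.27), and the ligand genes INHBB (0.699, 0.524 and 0.479 CPM to 30.2, 32.0 and 34.1 CPM, 5.78 ± 0.36) and TGFB1 (2.35 ± 0.19) rose. In this list, then, the NODAL ligand fell while 2 of its secreted inhibitors rose.

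BMP genes leaned upward, with 13 of 27 higher and 5 lower (median 0.610). The ligand BMP4 rose from 4.58, 4.04 and 2.50 CPM to 97.7, 110 and 141 CPM (4.96 ± 0.22), and BMP2, already at 137 to 146 CPM, rose to 275 to 315 CPM (1.06 ± 0.17). BMPER, an extracellular BMP binder (4.47 ± 0.21), and SMAD6, an inhibitor induced by BMP (8.43, 8.18 and 9.48 CPM to 88.9, 91.2 and 124 CPM, 3.54 ± 0.20), rose as well. Target genes of the ID family were split, with ID1 (1.10 ± 0.25) and ID3 (1.42 ± 0.27) higher and ID2 (-1.22 ± 0.15) lower.

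FGFR1, FGFR2 and FGFR3 and several feedback genes rose, while most of the called ligands fell. The list had 13 of 30 tested members higher and 9 lower (median 0.232). FGFR2 went from 5.75, 5.24 and 5.22 CPM to 71.1, 71.8 and 74.5 CPM (3.74 ± 0.14), FGFR3 by 3.78 ± 0.17 and FGFR1 by 0.80 ± 0.14, and the receptors FGFR4 (-0.16 ± 0.19) and FGFRL1 (-0.14 ± 0.19) did not pass. SPRY1 (3.15 ± 0.14), SPRY4 (2.63 ± 0.17) and DUSP6 (1.93 ± 0.15), inhibitors that FGF signalling itself induces, rose, whereas the FGF-induced factor ETV4 fell by 1.16 ± 0.17. Among ligands FGF8, FGF19 (-3.21 ± 0.23), FGF10 (-3.84 ± 0.43), FGF4 (-1.67 ± 0.17) and FGF2 (-1.54 ± 0.31) fell. FGF3 rose from 2 counts in all day 1 libraries together to 256 at day 2, a ratio of 148 with a 95% counting interval of 40.5 to 1226.

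Pluripotency genes fell, but at different speeds. Of 24 members, 17 were lower and 4 higher (median -0.908). NANOG, a homeobox factor of the pluripotent state, went from 40.1, 46.9 and 45.9 CPM to 3.63, 7.91 and 9.09 CPM (-2.68 ± 0.21), and L1TD1 fell by 2.64 ± 0.31. SOX2 had already been at 10.4 to 18.3 CPM at day 1, against a mean of 257 CPM at day 0, and fell by a further 1.17 ± 0.22. POU5F1, which encodes OCT4, was at 1381, 1423 and 1376 CPM and then 762, 743 and 1183 CPM (-0.64 ± 0.23, adjusted p = 0.0265). That call was stronger without day 2 replicate 3 (-0.88, adjusted p = 0.00453) and was lost without any of the other 5 libraries (adjusted p from 0.0507 to 0.113). LIN28A, an RNA-binding protein, did not pass (-0.24 ± 0.13) unless day 2 replicate 3 was left out (-0.40, adjusted p = 0.0162). DNMT3B (-0.58 ± 0.15), DPPA4 (-1.04 ± 0.10) and the NODAL co-receptor TDGF1 (-0.94 ± 0.17) fell less, and SALL4 (0.94 ± 0.11) and KLF4 (1.16 ± 0.28) rose.

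Targets of ATF4 fell. ATF4 is the transcription factor whose translation rises when PERK or another kinase phosphorylates eIF2 alpha, and its targets serve amino acid uptake, amino acid synthesis and transfer RNA charging. Of 42 members, 32 were lower and 1 was higher (median -0.819, and -0.950 without day 2 replicate 3). SLC7A5, the large amino acid transporter (chr16:87830023-87869488, minus strand), fell from 1593, 1791 and 1781 CPM to 212, 228 and 305 CPM (-2.79 ± 0.16, adjusted p = 7.47e-15). The cystine transporter SLC7A11 fell from 113, 127 and 121 CPM to 5.69, 9.19 and 1.51 CPM (-4.47 ± 0.39). ASNS, asparagine synthetase (-2.22 ± 0.15), PSAT1 and PHGDH of serine synthesis (-2.10 ± 0.10 and -0.80 ± 0.20), CHAC1 (-2.92 ± 0.25), STC2 (-3.57 ± 0.20) and ATF3 (-2.27 ± 0.19) fell, and ATF4 mRNA itself fell by 0.77 ± 0.18. GDF15 was the member that rose (1.55 ± 0.28), and DDIT3, which encodes CHOP, stayed between 1.73 and 3.51 CPM. Chaperones of the endoplasmic reticulum did not share the fall: of 19, 5 were higher and 2 lower (5 and none without day 2 replicate 3), HSPA5 was at 513 to 588 CPM and then 611 to 672 CPM (0.25 ± 0.18), and the lower call of HSP90B1 (-0.79 ± 0.25) was lost without day 2 replicate 3 (-0.47, adjusted p = 0.145).

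**Figure D4:**
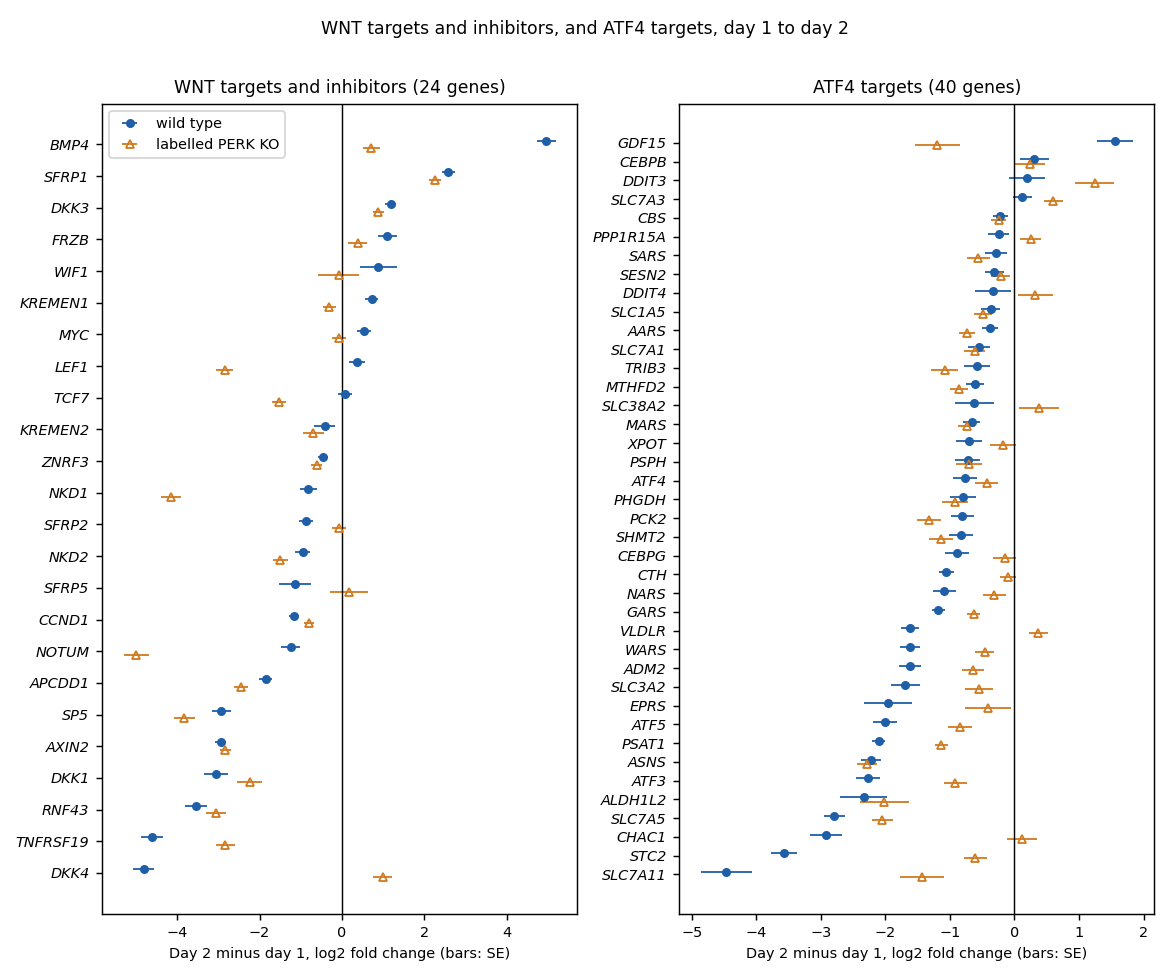
Log2 fold change from day 1 to day 2 of WNT targets and inhibitors (left) and ATF4 targets (right) with at least 1 CPM in any of the 4 groups, in wild type (filled circles) and in the libraries labelled PERK KO (open triangles), with bars for the SE. AXIN2 lies near -2.9 in both genotypes, DKK4 lies at -4.81 in wild type and 0.98 in the libraries labelled PERK KO, and of the 40 ATF4 targets drawn 30 were lower in wild type.

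Matrix and guidance genes rose. Of 34 collagens and other matrix genes, 17 were higher and 3 lower (median 0.506), among them COL5A1 (85.9, 83.5 and 93.2 CPM to 912, 928 and 1205 CPM, 3.54 ± 0.24), the fibrillin FBN2 (200, 197 and 208 CPM to 2077, 1940 and 1895 CPM, 3.29 ± 0.24), COL13A1 (3.92 ± 0.19) and COL6A1 (1.64 ± 0.15). HAS2, which makes hyaluronan, rose to 524, 549 and 176 CPM (2.84 ± 0.38), and VCAN, a hyaluronan-binding proteoglycan, fell to 194, 202 and 45.8 CPM (-2.03 ± 0.43), with replicate 3 lowest in both. COL2A1 fell by 2.05 ± 0.20. In the guidance list 21 of 40 tested members rose and 10 fell (median 0.752). PLXNA2, a semaphorin receptor, rose from 46.8, 41.5 and 46.5 CPM to 1132, 1140 and 1408 CPM (4.77 ± 0.26). SEMA6D (8.88 ± 0.43), SLIT3 (4.88 ± 0.21) and ROBO1 (1.70 ± 0.30) rose, and SEMA3C (-4.88 ± 0.46) and EFNB2 (-1.57 ± 0.18) fell.

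Genes of retinoic acid handling leaned upward, with 11 of 18 higher and 2 lower (median 0.751). CYP26A1, the enzyme that degrades retinoic acid, rose from 30.1, 27.2 and 32.7 CPM to 442, 434 and 482 CPM (3.91 ± 0.35), and the receptor gene RXRG rose by 5.07 ± 0.37. Of 39 HOX genes only 12 had enough counts to be tested, and 2 of these rose and 4 fell. HOXB2 rose from 2.52, 1.89 and 1.39 CPM to 14.7, 16.6 and 25.8 CPM (3.28 ± 0.31).

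Markers of other lineages were checked in the same libraries. Of 20 endoderm genes, 12 rose and 2 fell (median 1.85; 10 and 1 without day 2 replicate 3), and their summed level went from 165 to 196 CPM at day 1 to 1131 to 1289 CPM at day 2, most of it CER1 and GATA6, which mesoderm also expresses. SOX17, an endoderm and endothelial factor, had 1 count in the 3 day 1 libraries and 69.5, 61.0 and 79.3 CPM at day 2, a ratio of 4462 with a 95% counting interval of 800.3 to 176300. CXCR4 (6.70 ± 0.35) and HHEX (3.67 ± 0.28) rose, FOXA2 stayed at 11.4 to 11.8 CPM and then 7.68 to 10.2 CPM (-0.39 ± 0.23), and TTR had no counts. Endothelial and blood genes had 15 of 24 tested members higher and 2 lower (summed level 374 to 378 CPM and then 570 to 616 CPM, most of it KDR), with ETV2 rising from 0.466, 0.577 and 0.693 CPM to 3.18, 2.84 and 4.0 CPM. Neuroectoderm genes had 7 of 23 higher and 5 lower, their summed level rose from 598 to 644 CPM to 1379 to 1468 CPM, and PAX6 was at 0. OTX2, an anterior gene also active in the anterior streak, rose from 9.16, 10.4 and 9.64 CPM to 207, 201 and 192 CPM (4.36 ± 0.12, adjusted p = 3.9e-22), while SOX3 fell by 2.68 ± 0.26. Amnion and trophoblast genes had 3 of 14 tested members higher and 6 lower, and summed to 213 to 245 CPM and then 66.9 to 98.2 CPM. CDX2 made up most of the day 1 level, so the fall of the sum follows that gene and not the list as a whole. HAND1, also in the list, rose (log2 fold change 9.26), and ITGB6 was at 0. Cardiomyocyte genes summed to 223 to 253 CPM and then 127 to 141 CPM, with 4 of 19 higher and 5 lower (2 and 5 without day 2 replicate 3). Neural crest and surface ectoderm genes summed to 18.4 to 24.1 CPM and then 71.2 to 73.1 CPM, with 6 of 15 tested members higher and 2 lower (5 and 1 without that library). The part of such cells in the results above was not tested.

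Mitosis genes leaned downward, by an amount that depended on day 2 replicate 3. Of 25 mitosis genes, 12 were lower and none higher (median -0.526), and without day 2 replicate 3 these were 8 and a median of -0.340. The long transcript of CENPF, a kinetochore protein, gave 314, 319 and 344 CPM at day 1 and 86.0, 80.7 and 22.7 CPM at day 2 (-2.37 ± 0.39). TOP2A, topoisomerase II alpha, gave 171, 194 and 38.9 CPM at day 2, and its call (-1.25 ± 0.38) was lost without that library (-0.80, adjusted p = 0.0673). MKI67 did not pass (-0.74 ± 0.42), nor did CCNB1 (-0.19 ± 0.16). Among 25 S phase genes 4 were higher and 5 lower (3 and 3 without that library), TYMS of thymidylate synthesis rising by 0.72 ± 0.15. Both counts are below the shares over all genes for S phase, and in the mitosis list the share of lower genes (12 of 25) stands above 22.5%. Of 16 tested G1 cyclins and CDK inhibitors 4 were higher and 5 lower (3 and 3 without it). Cholesterol synthesis had 6 of 24 higher and 4 lower. Of 30 glycolysis genes 9 were higher and 3 lower (median 0.332), and without day 2 replicate 3 these were 8 and 4 (median 0.159). Of 28 respiratory chain genes 2 were higher and 5 lower (none and 6 without it), and of 25 ribosomal protein genes 1 was called (none without it). Among 24 p53 targets 8 rose and 7 fell, PMAIP1, which encodes the apoptosis protein NOXA, by the most (-2.22 ± 0.21).

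**Figure D5:**
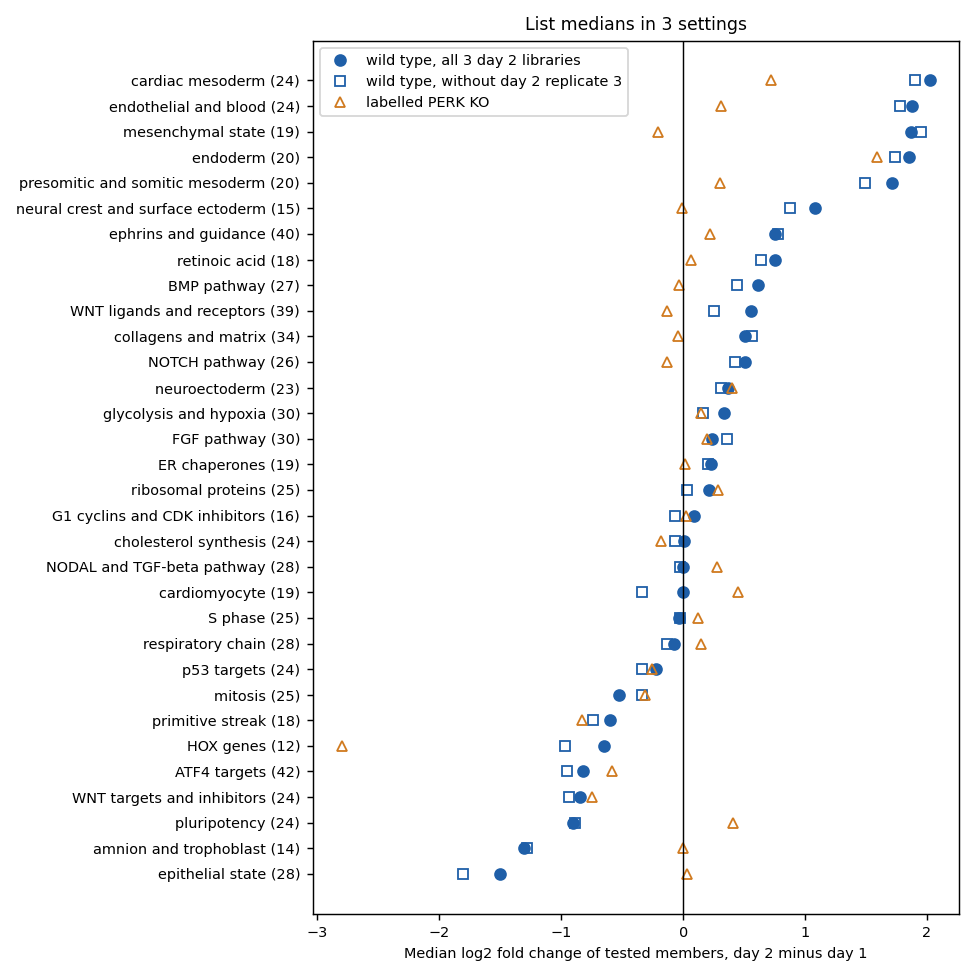
Median log2 fold change from day 1 to day 2 of the tested members of each list, in wild type with all libraries (filled circles), in wild type without day 2 replicate 3 (open squares) and in the libraries labelled PERK KO (open triangles); lists with at least 10 tested members are shown. Circles and squares lie at -1.50 and -1.81 for the epithelial list and at 1.87 and 1.95 for the mesenchymal list, and the triangles of those lists lie at 0.03 and -0.21.

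Large changes were also called for genes outside the lists. IRX3 and IRX5, Iroquois homeobox genes on chromosome 16, rose from 0.466, 0.629 and 0.799 CPM to 300, 331 and 443 CPM (9.16 ± 0.32) and from 0.272, 0.210 and 0.266 CPM to 39.4, 42.3 and 47.4 CPM (7.38 ± 0.27). ITGA8, an integrin, had 3 counts at day 1 and 2066 at day 2, a ratio of 794 with an interval of 271.5 to 3856. The receptor genes FSHR (8.06 ± 0.39) and CHRNB4 (7.55 ± 0.35) and the cadherin DCHS2 (7.70 ± 0.42) rose from under 1 CPM. On the other side, EDAR, the ectodysplasin receptor, fell from 40.4, 38.1 and 35.9 CPM to 1.17, 1.17 and 1.04 CPM (-5.08 ± 0.33), LMO7, a junction-associated protein, by 4.72 ± 0.31, and TTC29 from 14.7, 13.3 and 11 CPM to 0.112, 0.334 and 0 CPM. By TPM, the gains of called genes were led by APLNR, DLL3 (46.1 ± 3.08 to 1336 ± 53.6 TPM) and PKM (943 ± 9.46 to 2038 ± 294 TPM), and the losses included NPM1 (2574 ± 126 to 1164 ± 518 TPM) and the tubulin TUBB2B (2030 ± 102 to 878 ± 146 TPM). The day 2 libraries spread far more than the day 1 libraries for PKM and NPM1, so the sizes of those changes are uncertain.

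Fewer genes were called for the same step in the libraries labelled PERK KO. There 2549 genes were called (12.9%), 1337 higher (6.76%) and 1212 lower (6.13%). The difference between the steps, wild type minus KO, was called for 5653 genes (28.6%), with 2872 (14.5%) more positive and 2781 (14.1%) more negative in wild type. Of the 9030 wild-type calls, 4906 were also called in the difference, and in 4843 of these the difference had the sign of the wild-type change. Picking genes by their wild-type call favours that sign, because the same wild-type libraries enter both tests. The count therefore does not show that the wild-type step was larger. It includes genes that moved the other way in KO, such as VIM (1.25 in wild type and -1.36 in KO). Calls in both genotypes numbered 1294 in the same direction and 389 in opposite directions. The 2 steps share no library.

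The epithelial and mesenchymal lists showed such differences. In the libraries labelled PERK KO 2 epithelial genes rose and none fell, and the difference was called more negative in wild type for 23 of 28. CDH1 was at 509, 469 and 496 CPM and then 494, 498 and 523 CPM there (difference of steps -1.77 ± 0.23, adjusted p = 7.11e-07), and EPCAM at 220, 206 and 234 CPM and then 205, 171 and 196 CPM (-3.19 ± 0.29). Of the mesenchymal genes none rose and 5 fell, and 13 of 19 differences were called, all more positive in wild type. SNAI1 stayed at 11.4 to 13.7 CPM in all 6 of those libraries (difference 3.22 ± 0.23), and ITGA5 at 32.0 to 41.6 CPM (3.80 ± 0.23). ZEB2 fell there from 30.6, 25.4 and 24.6 CPM to 2.96, 3.06 and 2.91 CPM (difference 5.14 ± 0.49), TWIST1 fell by 1.85 (difference 7.70 ± 0.56) and VIM by 1.36 (difference 2.61 ± 0.20).

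Streak, mesoderm and signalling genes differed one by one. EOMES fell in the libraries labelled PERK KO from 117, 113 and 119 CPM to 50.8, 75.8 and 65.2 CPM (difference 2.73 ± 0.23), and EVX1 (3.95 ± 0.45) and CDX2 (3.95 ± 0.39) fell more steeply there. APLNR rose only to 51.2, 67.5 and 53.1 CPM (difference 3.09 ± 0.28). MESP2 stayed at 0.366 to 1.13 CPM (difference 6.16 ± 0.62), and DLL3 (5.11 ± 0.27), DLL1 (5.31 ± 0.25) and BMPER (5.15 ± 0.30) did not rise there. HAND1 was under 0.2 CPM in all 6 libraries, and its difference (8.62 ± 2.93, adjusted p = 0.027) was lost without KO day 1 replicate 2 or 3 (adjusted p = 0.261 and 0.0718). GATA6 rose more steeply in the libraries labelled PERK KO, from 0.871 to 1.47 CPM up to 19.1 to 28.4 CPM (difference -2.02 ± 0.36), whereas GATA4 fell there (difference 3.34 ± 0.37). FGF17 rose there from 3.88 to 9.77 CPM to 86.4 to 120.5 CPM (difference -3.38 ± 0.36), and FGF4, which fell in wild type, rose (-3.05 ± 0.25). NODAL fell in both, less there (difference -2.41 ± 0.41).

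Of 24 tested WNT targets and inhibitors 13 fell and 4 rose in the libraries labelled PERK KO, against 14 and 6 in wild type. The difference was called more positive in wild type for 9 and more negative for 3. Among WNT targets AXIN2 fell by 2.95 ± 0.14 in wild type and 2.84 ± 0.14 in the libraries labelled PERK KO, a difference of -0.11 ± 0.18 (adjusted p = 0.692), which does not show that the steps were equal. LEF1 fell there from 66.1, 63.0 and 61.2 CPM to 8.45, 8.90 and 8.97 CPM (difference 3.22 ± 0.28), DKK4 rose by 0.98 (difference -5.79 ± 0.34), and FZD7 stayed at 124 to 158 CPM (difference 3.78 ± 0.17). Of 24 pluripotency genes 8 rose and 3 fell there, POU5F1 going from 1684, 1615 and 1867 CPM to 2087, 2285 and 2348 CPM (0.38, not called; difference -1.02 ± 0.33, a call lost without wild-type day 2 replicate 1 or 2 or KO day 1 replicate 2, adjusted p from 0.0503 to 0.0544). Of 42 ATF4 targets 23 fell and 2 rose, and the difference was called more negative in wild type for 16 and more positive for 1. ASNS fell by 2.29 there (difference 0.07 ± 0.21, adjusted p = 0.844), while CHAC1 did not fall (0.11; difference -3.03 ± 0.34) and STC2 fell by 0.61 (difference -2.97 ± 0.27). PMAIP1 rose there from 134, 108 and 144 CPM to 601, 514 and 623 CPM (difference -4.39 ± 0.30).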

How the data were processed

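Polyadenylated RNA of H1 cells was sequenced as 150 base paired-end reads, with 3 libraries for each of 6 days in 2 genotypes. Per the submitters' processing notes, CASAVA, FastQC, STAR and RSEM were used with GRCh38, with no versions. The deposited files give RSEM's expected counts, which need not be whole, and TPM for 58721 GENCODE gene rows, per the file headers. RSEM shares reads of near-identical genes between them, so values of close copies such as MESP1 and MESP2, or of pseudogenes, are uncertain, and strand use is not given in the sources used here.

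Expected counts were rounded and fitted in edgeR 4.0.16 (R 4.3.3) with TMM scaling, its filter on low counts and the quasi-likelihood F test over all 36 libraries as 12 groups, with Benjamini-Hochberg adjustment over 19772 genes. Genes with an adjusted p under 0.05 were called. The SE is the log2 fold change divided by the root of F. The fit was tested on simulated data in which few genes changed and no library stood apart, so that test does not cover a library like day 2 replicate 3. Ratios of genes with few counts carry a 95% interval that covers counting error only. Total expected counts ran from 17391166 to 25860481 in the 6 libraries, so that values under 1 CPM rest on few reads. Genes were named from 33 lists (784 genes, 737 tested) and by rules: of the called genes, those with the 15 largest fold changes upward and downward (5 CPM or more, groups not overlapping), the 10 largest TPM differences and the 8 largest step differences each way, and EIF2AK3. The lists and named members were chosen with earlier results of these data known. Alternatives were other scaling (DESeq2 1.42.0 and RLE factors), other filters, other sets of libraries, a replicate block, a length offset, a 2-fold limit and each library left out; a fit to the compared libraries without wild-type day 2 replicate 3 was added after seeing the data. A few list members are counted but not reported by name here. Promoter letters came from RefSeq (GRCh38.p14).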

Additional observations from a re-analysis of the deposited data

Results flagged for a closer look

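For 41 named genes the step from day 1 to day 2 differed between wild type and the libraries labelled PERK KO by the interaction term of the edgeR fit. Each value here is the wild-type minus the KO log2 fold change. Among streak and mesoderm genes it was 2.73 for EOMES, -2.41 for NODAL, 3.95 for EVX1, -3.05 for FGF4, -3.38 for FGF17, 3.09 for APLNR, 6.16 for MESP2, 8.62 for HAND1, 3.34 for GATA4 and -2.02 for GATA6. Among presomitic and posterior genes it was 5.11 for DLL3, 5.31 for DLL1 and 3.95 for CDX2.

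Among epithelial and mesenchymal genes the difference was -1.77 for CDH1, -3.19 for EPCAM, 3.22 for SNAI1, 7.70 for TWIST1, 5.14 for ZEB2, 3.80 for ITGA5, 8.74 for LOX and 2.61 for VIM. Among signalling, pluripotency and stress genes it was -5.79 for DKK4, 3.22 for LEF1, 3.78 for FZD7, 5.15 for BMPER, -1.02 for POU5F1, -3.03 for CHAC1, -2.97 for STC2 and -4.39 for PMAIP1.

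The largest remaining differences were 8.62 for DRC7, 8.0 for SAMD11, 7.03 for KCNK17, 6.87 for TEPP and 6.80 for NRG2 on the positive side. On the negative side they were -8.42 for WFIKKN2, -7.89 for C9orf135, -7.36 for ECEL1P1, -7.32 for HPGD, -5.63 for MMP24, -5.47 for FLRT3 and -5.38 for MGAT4C. Where a group had hardly any counts, as for HAND1, DRC7, NRG2, WFIKKN2, C9orf135 and ECEL1P1, the size of the fitted value depends on the prior count and is no bound.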

How the results depend on the processing

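Of 196 named genes called in wild type, 184 were called under every setting run, 12 lost the call under at least 1 setting, and none that was called changed sign. Of 41 named step differences, 38 were called under every setting, and those of HAND1, POU5F1 and NRG2 (without KO day 1 replicate 2, adjusted p = 0.926) were not. With a change of at least 2-fold also required, the wild-type calls fell to 4936 (2350 higher, 2586 lower), the step differences to 3760 (1760 more positive) and the KO calls to 1300 (691 higher, 609 lower), by construction. Leaving out 1 library at a time gave 7239 to 8919 wild-type calls, 4555 to 5883 step differences and 1874 to 1942 KO calls, the lowest wild-type number without day 2 replicate 3. In a fit to the compared libraries alone, leaving that library out raised the wild-type calls from 7277 to 11153, with 16693 and 17138 genes tested. Genes not called in the fit to all libraries changed sign: KRT8 (0.1038 and 0.0556 without wild-type day 2 replicates 1 and 2, down to -0.3027 without replicate 3, and -0.3057 in the compared libraries without it, where edgeR called it at adjusted p = 0.0001488), TCF7 (-0.0408 without day 2 replicate 3, up to 0.1311 without replicate 1, and -0.0452 with only the compared libraries and that one left out) and DDIT3 (-0.0155 without day 1 replicate 2, up to 0.4625 without replicate 1), and the cause was not tested.

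Samples with the same replicate number did not deviate together (r = 0.0934, 0.0105 and 0.0451), so the number was not taken as a pairing. With a replicate block over all libraries 9194 genes were called in wild type, 5866 in the step difference and 2596 in KO. With the replicate block in only the compared libraries, wild-type calls were 6157, of which 2881 lower, where fewer genes were tested (16693) and the spread rests on 6 libraries. Depth limits genes such as FGF3, ITGA8 and SOX17, whose day 1 level rests on 1 to 3 counts.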

Other observations

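Values not given above follow for 3 genes with few counts. OAS1, an interferon-inducible enzyme, had 2 counts in the 3 wild-type day 1 libraries together and 705 at day 2, a ratio of 406.7 with a 95% counting interval of 112.2 to 3365. FGF21, a stress-induced hormone in the list of ATF4 targets, had 28 counts at day 1 and none at day 2, which makes day 1 at least 8.09-fold higher when day 2 is set at the floor of 3 counts over the group. C9orf135 had 34 counts at day 1 and 1 at day 2.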
